A study of Ovis aries with 8 samples.

Results

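The miR-127 mimic was compared with the control mimic in primary ovine skeletal muscle satellite cells, the stem cells that give rise to new muscle fibres. The comparison used the 4 libraries of the mimic arm, 2 per group, out of 8 libraries in the series, chosen by the treatment in the sample titles, and it took in every gene of the count table. Both groups were cells of SuffolkxTexel genotype from satellite cell cultures, transfected with RNAiMAX lipofectamine on day 0 and collected on day 4. The treated group received the mimic of miR-127 at 100 nM, and the control group a control mimic whose sequence and concentration the labels do not give. The other 4 libraries, which received an antagomiR against miR-22-3p at 500 nM or a control antagomiR, served to estimate the spread between libraries and as a second reference for levels. The labels do not say whether the 2 libraries of a group came from separate animals or cultures, so any p-value here reflects how these particular libraries scatter, which may be technical.

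A microRNA guides the Argonaute protein to messenger RNAs that pair with its seed, mostly in the 3' untranslated region, and the paired messages are then degraded or translated less. A mimic is a short RNA duplex that supplies extra copies of the guide strand, so its direct targets would be lower after transfection, while genes downstream of those targets may move either way. In mammals miR-127 is made from the maternal copy of the imprinted DLK1-DIO3 region, on the strand opposite RTL1, a gene that it silences and whose excess goes with the overgrown muscle of callipyge sheep. The series set out to examine satellite cell proliferation, and the RNA comparison asks which transcripts differ once miR-127 has been added.

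Depth in the mimic arm ran from 27208890 to 34312618 counts per library, with 16677 to 16899 genes detected. Of the 20921 gene rows, 16353 passed a filter on low counts and were tested. The rows carry Ensembl sheep gene IDs, none of which (0 of 20921) was paired with a symbol by the RefSeq gene table used here, so genes are given by ID without position or function. For the same reason the satellite cell label was not checked against marker genes, and RTL1 and other reported targets were not looked up. Delivery of the mimic was not analysed here either, since these are libraries of poly(A) RNA. In bulk RNA of this kind, fewer cells that express a gene and less RNA of that gene per cell cannot be told apart.

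The 2 miR-127 mimic libraries differed from each other more than the 2 libraries of any other group. A gap of at least 2-fold between the replicates was seen for 1234 genes (7.55%) in the miR-127 mimic group, against 948 (5.80%) in the control mimic, 999 (6.11%) in the control antagomiR and 855 (5.23%) in the antagomiR-22-3p group. These gaps were taken on log2 CPM (counts relative to the size of the library, corrected by TMM factors) with a prior count of 2. Most lay among genes with few reads, but the excess went beyond them. The genes tested were divided by read abundance into 4 classes of 4088 or 4089 genes. Outside the least abundant class, 90 genes were at least 2-fold higher in miR-127 mimic replicate 2 than in replicate 1, and 21 at least 2-fold higher in replicate 1. For 88 of those 90 genes replicate 1 lay below both control mimic libraries, and for 57 replicate 2 lay above both. Relative to the midpoint of the controls, the median log2 difference of these 90 genes was -0.87 in replicate 1 and 0.34 in replicate 2. Replicate 1 was the one farther from the controls for 72 of the 90. Of the 21 genes that differed the other way, replicate 1 lay above both controls for 20 and replicate 2 below both for 19, and replicate 1 was farther for 10 and replicate 2 for 11. These genes were picked for the gap between the replicates, so the values describe where each library lay and test nothing.

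The mimic comparison called no gene at an adjusted p of 0.05 or less (0 of 16353 genes, or 0%, by edgeR's quasi-likelihood test with Benjamini-Hochberg adjustment). At an adjusted p of 0.1 or less there were 4 genes (0.0245%), all of them lower after the mimic, and the lowest adjusted p of a higher gene was 0.216 by edgeR. At an unadjusted p under 0.05, 558 genes (3.41% of those tested) were higher after the mimic and 585 (3.58%) lower. Together these are 1143 genes (6.99%), where a test with no true difference would pass 818. Scaling by library totals in place of TMM factors changed the split to 430 higher and 722 lower. Other tools made calls on the same counts: DESeq2 called 43 genes, 21 higher and 22 lower, and edgeR's likelihood-ratio test called 92, 44 higher and 48 lower. The main fit did not use the experiment number in the sample titles, whose meaning the labels do not give. A block on that number over all libraries gave 2 calls. Set within each arm, a choice made after the data were seen, the block gave 124 calls, 67 higher and 57 lower.

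How many genes passed depended on which library was present. Without miR-127 mimic replicate 2, 1294 genes were lower and 686 higher at an unadjusted p under 0.05, and 60 were called, 48 of them lower. Without miR-127 mimic replicate 1, 434 were lower and 585 higher, and 1 was called. Dropping control mimic replicate 1 gave 430 lower and 355 higher, with 0 called, and dropping replicate 2 of that group gave 349 lower and 394 higher, with 1 called. Each of these fits leaves 1 library in a group and takes its spread from the other groups. An excess of lower genes was therefore present with replicate 1 as the only miR-127 mimic library, and an excess of higher genes with replicate 2 as the only one.

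**Figure D1:**
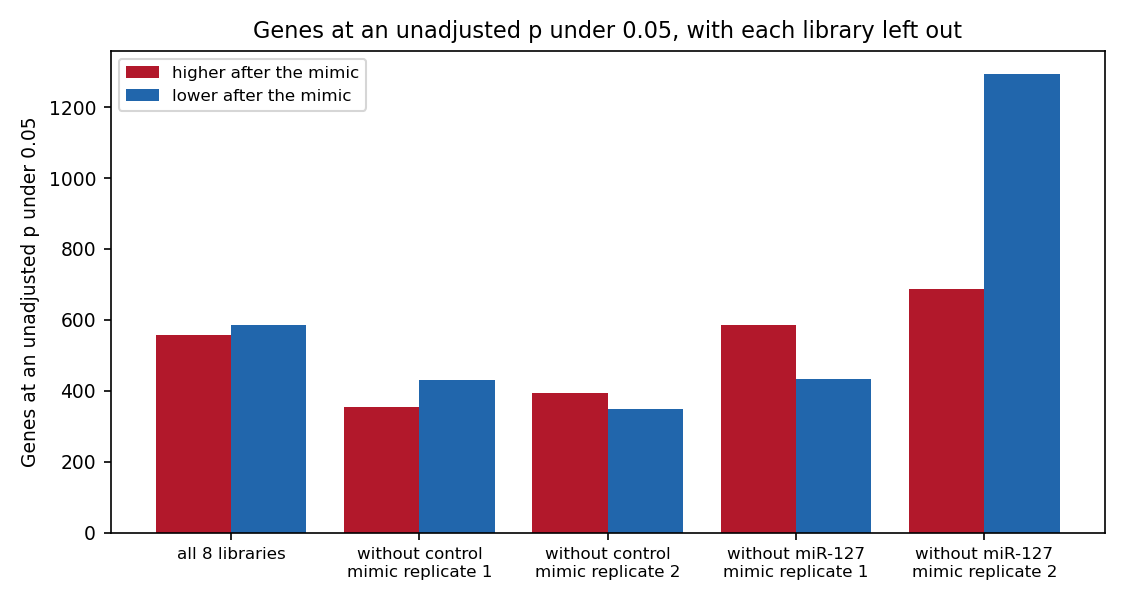
Number of genes at an unadjusted p under 0.05 by edgeR's quasi-likelihood test (vertical axis), higher (red) or lower (blue) after the miR-127 mimic, in the fit of all 8 libraries and in the fits that leave out 1 library of the mimic arm. The bars are near each other with all libraries (558 and 585) and far apart without miR-127 mimic replicate 2 (686 and 1294).

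Direction and size of the genes at an unadjusted p under 0.05 varied with abundance. Abundance here is the average read count level over the 4 libraries, with no correction for gene length, and the 4 classes met at 5.22, 17.9 and 49.1 CPM. In the most abundant class, the mimic libraries were higher for 199 genes and lower for 115, with a median of 1.23-fold in both directions. In the least abundant class, 97 were higher and 151 lower, with medians of 2.53-fold and 2.77-fold. The 2 classes between them held 111 and 151 higher and 155 and 164 lower genes, with medians from 1.28-fold to 1.49-fold. Genes of the most abundant class at this level of evidence were thus more often higher than lower, and those of every other class more often lower. This contrast between classes was not tested. The classes were counted with TMM factors only, and scaling by library totals changed the split over all genes, as given above.

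The 100 most abundant genes, which made up 27.3% to 29.2% of each library, kept within narrow limits. Their log2 fold changes ran from -0.29 to 0.90, and 99 of the 100 were within 1.5-fold. The exception was ENSOARG00000020058 at 0.90, and the next highest stood at 0.54. At an unadjusted p under 0.05 there were 8 higher and 0 lower among them by edgeR's quasi-likelihood test, a share near the 6.99% of all genes tested.

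**Figure D2:**
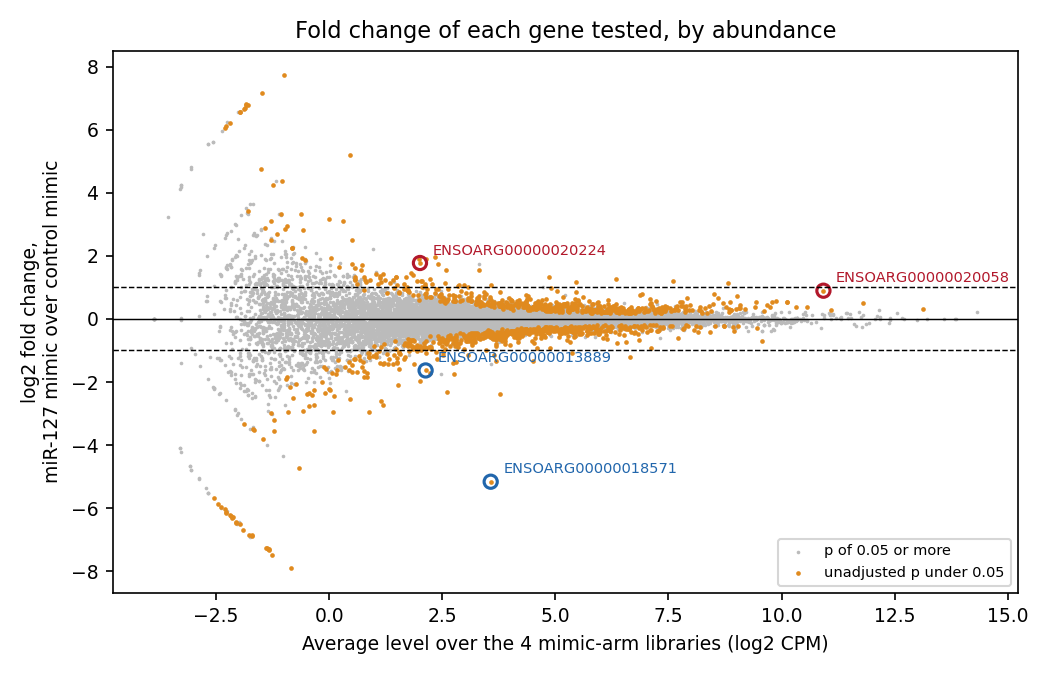
Log2 fold change of the miR-127 mimic over the control mimic (vertical axis) against the average level over the 4 libraries in log2 CPM (horizontal axis) for the 16353 genes tested, with genes at an unadjusted p under 0.05 in orange, the 4 named genes circled and dashed lines at 2-fold. The cloud narrows from left to right, and ENSOARG00000018571 at -5.16 is the farthest from 0 of the 4, while the arcs on the left are mostly genes with 0 counts in both libraries of 1 group, whose fitted fold depends on the prior count.

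The libraries bounded the mimic's effect closely for genes with many reads and loosely for the rest. The 95% interval of the log2 fold change lay wholly within 2-fold either way for 12332 genes (75.4%). It did so for 99.2% of the most abundant class, 98.7% of the next and 88.4% of the one after, but for 15.3% of the least abundant. Within 1.5-fold either way the same shares were 93.7%, 84.1%, 34.6% and 0.196%. The median half-width of the interval corresponded to 1.16-fold in the most abundant class and 2.33-fold in the least abundant. For genes above 17.9 CPM, a change of 2-fold or more was thus outside the interval nearly throughout, whereas for those below 5.22 CPM it was seldom outside. These intervals are per gene, are not adjusted for the number of genes, and borrow their spread in part from the antagomiR arm. The median replicate gap was widest in the miR-127 mimic group in every class. A spread shared by all groups may thus make the intervals too narrow. Leaving out 1 library gave between 11071 and 11523 such genes within 2-fold.

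**Figure D3:**
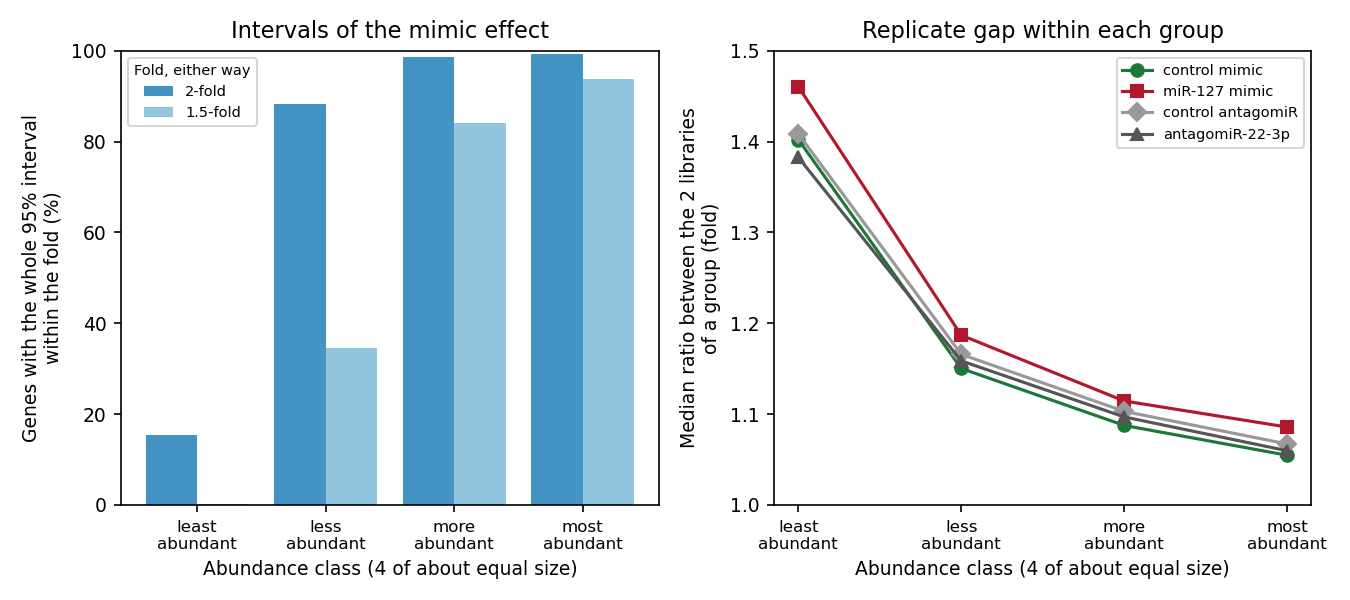
Left, share of genes in percent whose whole 95% interval for the miR-127 mimic effect lies within 2-fold (dark bars) or 1.5-fold (light bars) either way, by class of read abundance. Right, median fold ratio between the 2 libraries of each group in the same classes (axis from 1 to 1.5); the miR-127 mimic group is highest in each class, from 1.46-fold among the least abundant to 1.09-fold among the most abundant genes.

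Genes separated by size in all 4 possible pairs of libraries were few. The 2 groups did not overlap for 2981 genes higher (18.2%) and 2888 lower (17.7%) after the mimic. With 2 libraries a group, orderings without overlap are frequent also where nothing differs, so these shares do not show a response. At least 2-fold lay between the nearest libraries for 61 genes higher (0.373%) and 80 genes lower (0.489%), on log2 CPM with a prior count of 2. Of these 141 genes, 99 had an unadjusted p under 0.05 by edgeR's quasi-likelihood test, a share raised by choosing them on the same libraries. In the least abundant class were 59 of the higher and 77 of the lower genes. Among all more abundant genes 2 were higher and 3 lower by this measure. With a filter of at least 1 CPM in at least 4 libraries the counts were 13 higher and 28 lower, since that filter removes many of the scarce genes. No gene was listed at 0 in both libraries of one group while reaching 1 CPM in both libraries of the other.

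The 2 ways of forming ratios that share no library gave weakly related values. With libraries matched by number, the log2 ratios of replicate 1 and of replicate 2 correlated across the 16353 genes at r = 0.10 (rho = 0.11), and across the 4088 most abundant genes at r = 0.31 (rho = 0.20). With each mimic library set against the other control library, r was 0.063 (rho = 0.021) over all genes and 0.011 (rho = -0.073) among the most abundant. All genes of a ratio share its 2 libraries, they are not independent replicates, and scarce genes bring counting noise, so no p is given. Counted in genes, with libraries matched by number, 117 were at least 2-fold higher in both ratios, 158 at least 2-fold lower in both, and 200 at least 2-fold apart in opposite directions. With the other matching these numbers were 106, 113 and 196. More genes were thus 2-fold apart in opposite directions than higher in both ratios, and more than lower in both, although the genes with a shared direction together outnumbered them.

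**Figure D4:**
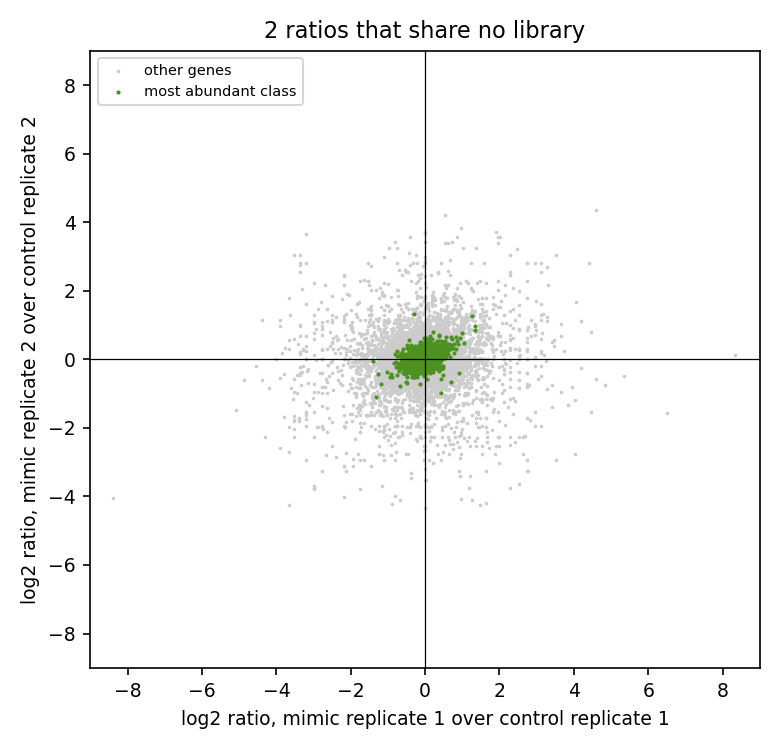
Log2 ratio of miR-127 mimic replicate 2 over control mimic replicate 2 (vertical axis) against that of replicate 1 over replicate 1 (horizontal axis) for each gene tested, with the most abundant class in green. The cloud is nearly round over all genes (r = 0.10) and stretched along the diagonal in the most abundant class (r = 0.31).

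Set against all 6 other libraries, the miR-127 mimic group stood at an extreme for more genes than the control mimic did. The control antagomiR group did so for more genes still. Both miR-127 mimic libraries lay above all 6 others for 1204 genes (7.36%) and below all 6 for 1176 (7.19%). The control mimic libraries did so for 566 (3.46%) and 760 (4.65%) genes, and the antagomiR-22-3p libraries for 496 (3.03%) and 407 (2.49%). For the control antagomiR libraries the numbers were 1252 (7.66%) and 1413 (8.64%). The miR-127 mimic and the control antagomiR were thus the 2 groups most often at an extreme. With at least 2-fold to the nearest of the other 6 libraries, the miR-127 mimic group was lowest for 20 genes and highest for 4. The other groups were lowest for 5 to 9 genes and highest for 2 to 6. These counts are given as a description, and the difference between groups was not tested.

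Of the 4 genes named by rule, 2 in each direction, none was called, and in each the 2 miR-127 mimic libraries were the 2 highest or the 2 lowest of all 8. The rule took genes for a small p or a wide gap from the control mimic, so their folds may be overstated. Levels in the antagomiR arm were not part of the rule, although p drew on the spread of all 8 libraries. A choice of genes with extreme miR-127 mimic values also favours an extreme place among all 8, so that place is a description only. ENSOARG00000018571 had the smallest p of all genes. It was listed at 21.8 and 24.1 CPM in the control mimic libraries (578 and 782 counts), and at 0 and 1.41 CPM after the miR-127 mimic (0 and 36 counts). The groups did not overlap, and the library with no count was replicate 1. The log2 fold change was -5.16 (95% interval -6.53 to -3.79, adjusted p = 0.0597 by edgeR), and since counts were near 0 its size is loosely measured. Without miR-127 mimic replicate 1 it was -4.02, and without replicate 2 the remaining library held no count, so that the fold cannot be measured. In the control antagomiR libraries the gene stood at 20.8 and 20.6 CPM, close to the control mimic, and in the antagomiR-22-3p libraries at 89.3 and 54.8 CPM. The adjusted p by edgeR was 0.267 or 0.550 when control mimic replicate 1 or 2 was dropped. It was 0.0169 or 0.00102 when replicate 1 or 2 of the miR-127 mimic was dropped.

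ENSOARG00000013889 was the gene with the widest separation by size among the other lower genes that the rule admitted. At an average of 2.13 log2 CPM it lay near the rule's limit of 2, in the least abundant class. Its levels were 5.95 and 7.08 CPM in the control mimic libraries and 1.95 and 2.27 CPM after the miR-127 mimic, so the replicates of either group were close. The counts behind these levels were 158 and 230 against 63 and 58. With a prior count of 2, the nearest libraries stood 2.58-fold apart. Its log2 fold change was -1.63 (SE 0.32, 95% interval -2.35 to -0.91), with an adjusted p of 0.424 by edgeR's quasi-likelihood test. In the antagomiR arm it stood at 7.49 and 11.1 CPM in the control and at 9.27 and 16.1 CPM after antagomiR-22-3p, so that every one of the 6 other libraries was above both miR-127 mimic libraries. Leaving out 1 library kept the log2 fold change between -1.75 and -1.50.

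ENSOARG00000020058 had the smallest p among the higher genes and is among the most abundant 100 in read counts. It stood at 1453 and 1268 CPM in the control mimic libraries and at 2912 and 2153 CPM after the miR-127 mimic. Replicate 1 of the mimic was the higher, and the nearest libraries of the 2 groups were 1.48-fold apart. The log2 fold change was 0.90 (SE 0.14, 95% interval 0.58 to 1.21, adjusted p = 0.216 by edgeR). The 4 libraries of the antagomiR arm lay between 1194 and 1319 CPM, so that the 6 other libraries reached from 1194 to 1453 CPM and both miR-127 mimic libraries were above them. Without miR-127 mimic replicate 2 the log2 fold change was 1.10 with an adjusted p of 0.00551 by edgeR, and without replicate 1 it was 0.66 with an adjusted p of 0.280.

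ENSOARG00000020224 had the widest separation among the higher genes that the rule admitted. At an average of 2.01 log2 CPM it lay just above the rule's limit of 2, in the least abundant class, where intervals were widest. Its levels were 1.66 and 1.91 CPM in the control mimic libraries and 6.61 and 5.63 CPM after the miR-127 mimic, from 44 and 62 counts against 214 and 144. With a prior count of 2, the nearest libraries were 2.88-fold apart. The log2 fold change was 1.78 (SE 0.38, 95% interval 0.93 to 2.62, adjusted p = 0.455 by edgeR). The antagomiR arm took a middle place, with 3.66 and 1.68 CPM in its control and 4.26 and 4.90 CPM after antagomiR-22-3p. The control mimic libraries were near the low end of all libraries and the miR-127 mimic libraries at the top, an order that the rule favours. Within the antagomiR arm, the lower antagomiR-22-3p library (4.26 CPM) was above the higher control library (3.66 CPM), a difference that was not tested. Leaving out 1 library kept the log2 fold change between 1.65 and 1.89.

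**Figure D5:**
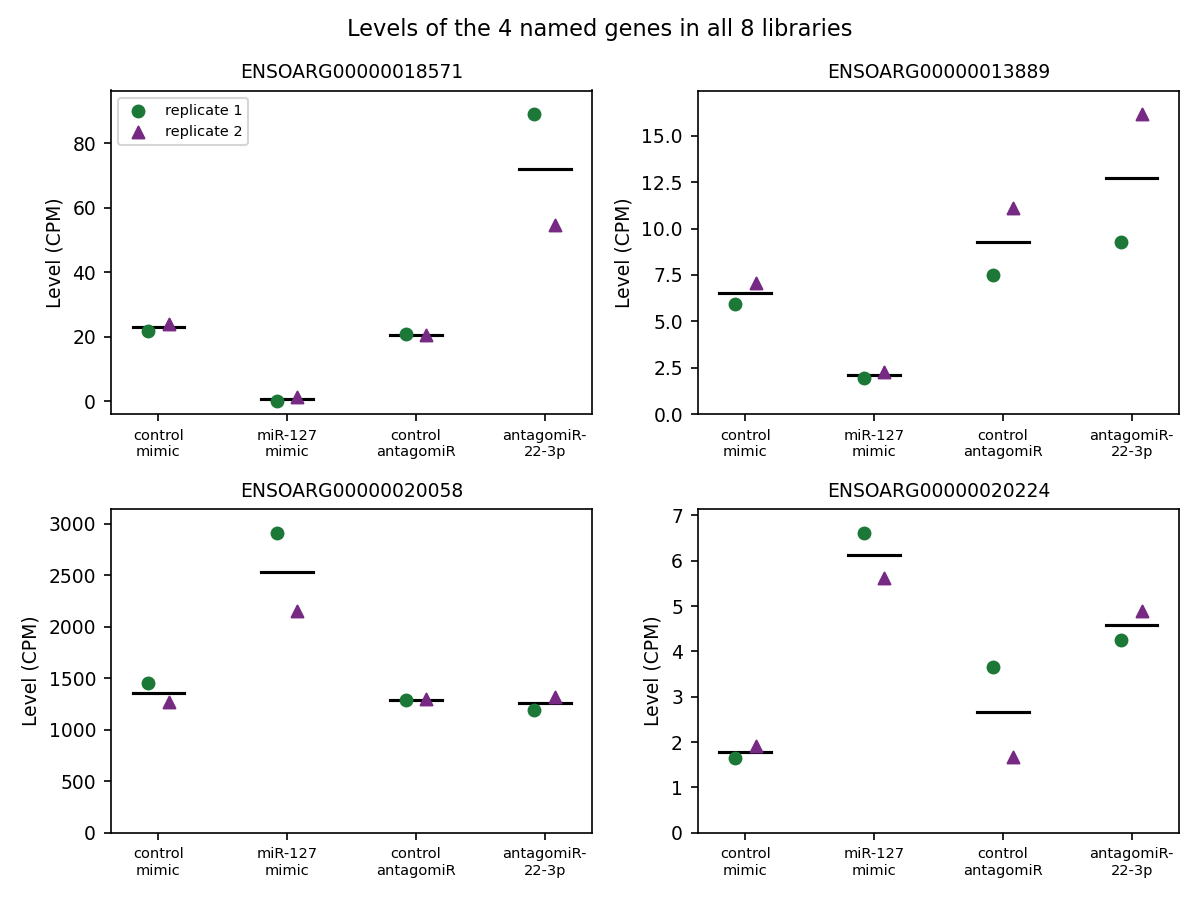
Level in CPM (vertical axes, each with its own scale) of the 4 named genes in the 8 libraries by group, with replicate 1 as circles, replicate 2 as triangles and the group mean as a line. The 2 miR-127 mimic libraries are the lowest of all for ENSOARG00000018571 (0 and 1.41 CPM) and ENSOARG00000013889, and the highest for ENSOARG00000020058 and ENSOARG00000020224.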

How the data were processed

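Raw gene-level read counts were deposited by the authors in 1 table, as whole numbers with a different total in each of its 8 columns and 0 columns of other samples. Tools named in the submitters' processing notes, without role or order, are edgeR 3.34.1, featureCounts 2.0.2 of Subread, RSEM 1.3.3, Trim Galore 0.6.5 and FastQC 0.11.8. Genome build, annotation and strand setting were not given in the sources used here. Between 11.9% and 15.6% of counts from 1 to 100 in a library were odd, so most counts come in steps of 2 and do not stand for independent reads. Both miR-127 mimic samples carry 1 description, so the titles (experiment 1 or 2) decided which column is whose.

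The analysis ran edgeR 4.0.16 in R 4.3.3: default expression filter (minimum count 10, total 15), TMM factors, and the quasi-likelihood F test in 1 model of 4 group means over all 8 libraries (4 residual and 6.29 prior degrees of freedom), two-sided, with Benjamini-Hochberg adjustment. SE is the log2 fold change over the root of F, and the 95% interval uses the t quantile at the test's degrees of freedom; 8 genes gave no interval. The code was also run on counts simulated from the fitted model, with the same spread in every group. That run checks the code and cannot show how well the intervals hold for these libraries. Named genes, 2 per direction, did not overlap between groups, had an average of at least 2 log2 CPM and no other gene within 2% in every library; the first had the smallest p, the second the largest ratio between nearest libraries. The comparison, rules and lists were chosen with earlier results of these data known. Lists of gene symbols could not be applied. Alternatives were RLE factors, library totals, other filters, DESeq2 1.42.0, a likelihood-ratio test, the replicate number as a block, the 4 libraries alone, halved counts and leaving out each library.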

Additional observations from a re-analysis of the deposited data

How the results depend on the processing

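The 0 calls of the main fit became 17 with library totals, 6 with no expression filter, 1 with only the 4 libraries compared, 1 with counts divided by 2, 4 at an adjusted p of 0.1, 43 with DESeq2, 92 with the likelihood-ratio test, and from 0 to 60 with 1 library left out. RLE factors and the stricter filter also gave 0. With 1 library left out, genes at an unadjusted p under 0.05 numbered from 355 to 686 higher and from 349 to 1294 lower. Genes 2-fold apart in all pairs numbered 111 higher and 128 lower with no filter, 13 and 28 with the stricter filter, 26 and 45 with halved counts, and from 194 to 280 and from 209 to 414 with 1 library left out, where fewer libraries must agree. The number of intervals within 2-fold stayed between 11071 and 12622 in all 13 alternatives. The log2 fold changes of the 4 named genes kept their sign in all 14 alternatives each; DESeq2 called ENSOARG00000013889 (adjusted p = 0.00232), ENSOARG00000020058 (6.21e-08) and ENSOARG00000020224 (0.0079), but not ENSOARG00000018571 (0.224). That gene was called with library totals (3e-04 by edgeR), no expression filter (0.00651), halved counts (0.0352) and the likelihood-ratio test (0.000194), which called all 4.

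The experiment number as a replicate block over all 8 libraries gave 2 calls. Deviations of same-numbered libraries from their group means correlated at r = 0.041 in the mimic arm and 0.17 in the antagomiR arm across all genes (0.34 and 0.65 in the most abundant class), and between arms from -0.069 to -0.016. The labels do not say what a shared number marks. A replicate block within each arm, added after the data were seen, gave 124 calls, 67 higher and 57 lower, with 868 higher and 960 lower genes at an unadjusted p under 0.05. It called ENSOARG00000018571 (adjusted p = 0.000375 by edgeR), ENSOARG00000013889 (0.00823) and ENSOARG00000020058 (0.000415), but not ENSOARG00000020224 (0.0609). The cause of these changes was not tested. Intervals were widest in the least abundant class, where 15.3% lay within 2-fold; halved counts left 12318 within 2-fold over all genes, against 12332.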
